A study of Homo sapiens with 12 samples.

Results

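OV2008 and its cisplatin-resistant derivative C13 were compared, as a family of 2 cell lines, with the HeyA8 and SKOV3 families, to describe which genes set the OV2008 family apart whatever the drug treatment. The series holds 12 RNA-seq libraries from 6 human cell lines labelled as ovarian cancer, 1 library per line and treatment. The 4 libraries of the OV2008 family are OV2008 vehicle, OV2008 treated with 8 µM quinacrine (QC) for 6 h, C13 vehicle and C13 QC, and values of the family are given below in this order. The other 8 libraries have the same layout and come from HeyA8 and its carboplatin-resistant partner HeyA8-MDR, and from SKOV3 and its taxol-resistant partner SKOV3-TR. A gene was called high when its lowest normalized level in the 4 libraries exceeded its highest level in the other 8, and low in the reverse case. By this rule 1984 of 17766 tested genes (11.2%) were high and 1553 (8.74%) were low, 3537 genes or 19.9% in all. Among genes that did not pass the filter on low counts, 278 more were high and 87 more were low at the same scaling. The rule itself uses the levels of these libraries, so the separation of the members is a description and carries no test.

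Levels are CPM, counts scaled to a common library total, after TMM scaling, and the distance of a member is the log2 difference between the nearest libraries of the 2 sides. Libraries held 17782556 to 30585059 counts, and 1 count in a library of the OV2008 family was worth 0.0331 to 0.0558 CPM. Each family is 2 related lines with 1 library per condition, so its 4 libraries are not 4 independent lines. The p-values measure the spread between the libraries of a family, except in the interaction with resistance described below. A stated limit of the groups is the culture medium, since the HeyA8 lines were grown in DMEM and the other lines in RPMI-1640. Cell line registers list OV2008 as a misidentified line, and its origin was not tested here. The HeyA8 QC library stood between its 2 lines for part of the genes that divide them. Over the 235 genes with at least 8-fold more in HeyA8-MDR vehicle than in HeyA8 vehicle, its level had moved by a median of 67.6% from HeyA8 towards HeyA8-MDR. Without that library 2090 genes were high and 1626 were low, and the counts of the fits below are also given without it. Over the 206 genes with at least 8-fold less in HeyA8-MDR it had moved by 23.2%. The corresponding values of OV2008 QC were 21.5% over 137 genes and 5.75% over 139.

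Epithelial cells hold together through cadherins, desmosomes and tight junctions and carry keratin filaments, whereas mesenchymal cells carry vimentin and a collagen-rich matrix. Grainyhead factors, OVOL factors and microRNAs of the miR-200 family maintain the epithelial state, and the repressors ZEB1 and ZEB2 oppose it. The basal layer of squamous epithelium is marked by the transcription factor p63, by the keratin pair KRT5 and KRT14 and by desmosomal cadherins, and p63 is known to maintain it together with miR-205. The female reproductive tract forms from the Müllerian duct, whose epithelium and many tumours of the ovary express PAX8 and SOX17. HOX genes record position along the body axis, with high numbers in posterior and distal structures.

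The host genes of 2 epithelial microRNA loci were members, MIR205HG and MIR200CHG. Some of the mature microRNAs that lie inside these host genes are shown because their seeds (bases 2 to 8, in capitals) belong to different families. The mature hsa-miR-205-3p and hsa-miR-200c-5p lie there too and are not shown. Mature microRNAs were not measured in these libraries. Sequences and positions are those of RefSeq on GRCh38.p14.
hsa-miR-205-5p (chr1:209432166-209432187, plus strand): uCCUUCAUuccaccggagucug
hsa-miR-200c-3p (chr12:6963742-6963764, plus strand): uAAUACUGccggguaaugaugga
hsa-miR-141-3p (chr12:6964155-6964176, plus strand): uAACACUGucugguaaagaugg

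MIR205HG was at 86.1, 95.7, 119 and 139 CPM in the OV2008 family. It had no count in 7 of the other 8 libraries and 0.107 CPM in SKOV3-TR QC. MIR200CHG was at 2.57, 4.48, 1.49 and 1.92 CPM and had no count in the other 8 libraries, so the lowest of the 4 was at least 8.36-fold above the level that 3 counts would give there. ZEB1, the repressor that miR-200c is known to target, ran the other way, with 0.112, 0.176, 0.529 and 0.602 CPM against 31.7 to 158 in the other 8 libraries.

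Promoter windows of 4 named members are shown for the motif counts given further on, chosen because each holds a match. The windows of VIM and TGFBR2 were searched too, held no match to these motifs and are not shown. They are the 250 bases before the annotated start on GRCh38.p14, from RefSeq. Capitals mark matches, on either strand, to the E-box CAGGTG and to the AP-1 motif TGANTCA.
TMEM30B (chr14:61281339-61281588, minus strand): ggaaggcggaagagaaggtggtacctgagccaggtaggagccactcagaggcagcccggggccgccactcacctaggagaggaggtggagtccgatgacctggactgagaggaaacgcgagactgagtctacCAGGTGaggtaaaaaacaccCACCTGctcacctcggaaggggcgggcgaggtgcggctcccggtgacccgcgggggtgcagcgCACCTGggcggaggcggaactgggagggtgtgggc
KRT5 (chr12:52520395-52520644, minus strand): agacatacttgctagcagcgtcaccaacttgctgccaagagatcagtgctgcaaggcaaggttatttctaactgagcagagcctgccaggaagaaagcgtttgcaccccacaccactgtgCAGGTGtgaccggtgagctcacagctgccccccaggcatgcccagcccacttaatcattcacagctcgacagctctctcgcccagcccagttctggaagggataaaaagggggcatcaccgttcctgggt
SERPINB5 (chr18:63476708-63476957, plus strand): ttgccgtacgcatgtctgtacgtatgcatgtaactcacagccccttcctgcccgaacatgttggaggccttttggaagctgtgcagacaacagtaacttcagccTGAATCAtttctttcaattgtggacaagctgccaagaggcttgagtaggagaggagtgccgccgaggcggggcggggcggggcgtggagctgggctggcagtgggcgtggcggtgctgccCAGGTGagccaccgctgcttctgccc
ZEB1 (chr10:31318167-31318416, plus strand): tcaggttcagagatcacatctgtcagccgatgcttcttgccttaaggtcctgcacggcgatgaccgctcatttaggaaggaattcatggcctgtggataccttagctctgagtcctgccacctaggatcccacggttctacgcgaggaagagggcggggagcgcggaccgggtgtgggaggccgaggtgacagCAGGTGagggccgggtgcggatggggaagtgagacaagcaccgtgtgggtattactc

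Members were spread from tiny to very large distances. The median distance was 0.49 on the log2 scale for high and 0.59 for low members. At least 1 on the log2 scale was reached by 569 high and 528 low members, at least 3 by 196 and 151, and at least 5 by 72 and 60. There were 39 high members without a count in any of the other 8 libraries and 105 low members without a count in any of the 4. Protein-coding genes made up 85.4% of the high and 81.8% of the low members, beside 77.4% of the tested genes. The same rule set apart 18.3% of the tested genes in the HeyA8 family (9.81% high and 8.51% low) and 24.3% in the SKOV3 family (13.8% and 10.6%), so the OV2008 family lay between them. Without the filter, and scaled over all 39590 genes with a count, 2432 genes (6.14%) were high and 1522 (3.84%) low in the OV2008 family.

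At the edge of the rule, the high members with the smallest distance were C2orf49, with 30 to 42.1 CPM against at most 30 in the others, and SNRPB, with 243 to 479 against at most 243. The nearest genes left out were BST2 and TAF5L, with lowest levels of 54 and 34.3 CPM and highest levels of 54 and 34.3 on the other side. KDSR, at most 50.9 against at least 50.9 CPM, and DMTF1, at most 44.2 against at least 44.2, were the last low members. PDK4 and SLITRK2 were left out because both sides held a library without counts.

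The 10 high members with the largest distance were OLR1, TMEM30B, EMB, GRHL2, KRT13, IRX2, CBLC, MIR205HG, TP63 and DSG3. OLR1, a receptor for oxidized LDL, was at 374, 289.6, 169 and 131 CPM and had no count in the other 8 libraries, which places the lowest library at least 735-fold above 3 counts. TMEM30B, a subunit of phospholipid flippases, was at 113, 102, 84 and 88.7 CPM, and EMB, a partner of monocarboxylate transporters, at 58, 52.7, 75.7 and 76.4. Neither had a count elsewhere, and their bounds were at least 472-fold and at least 296-fold. The levels of TMEM30B and EMB in the 4 libraries stayed within a narrow range. CBLC, a ubiquitin ligase of epithelial cells, was at 50.3, 58.5, 38.3 and 38.6 CPM and 0 elsewhere.

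**Figure D1:**
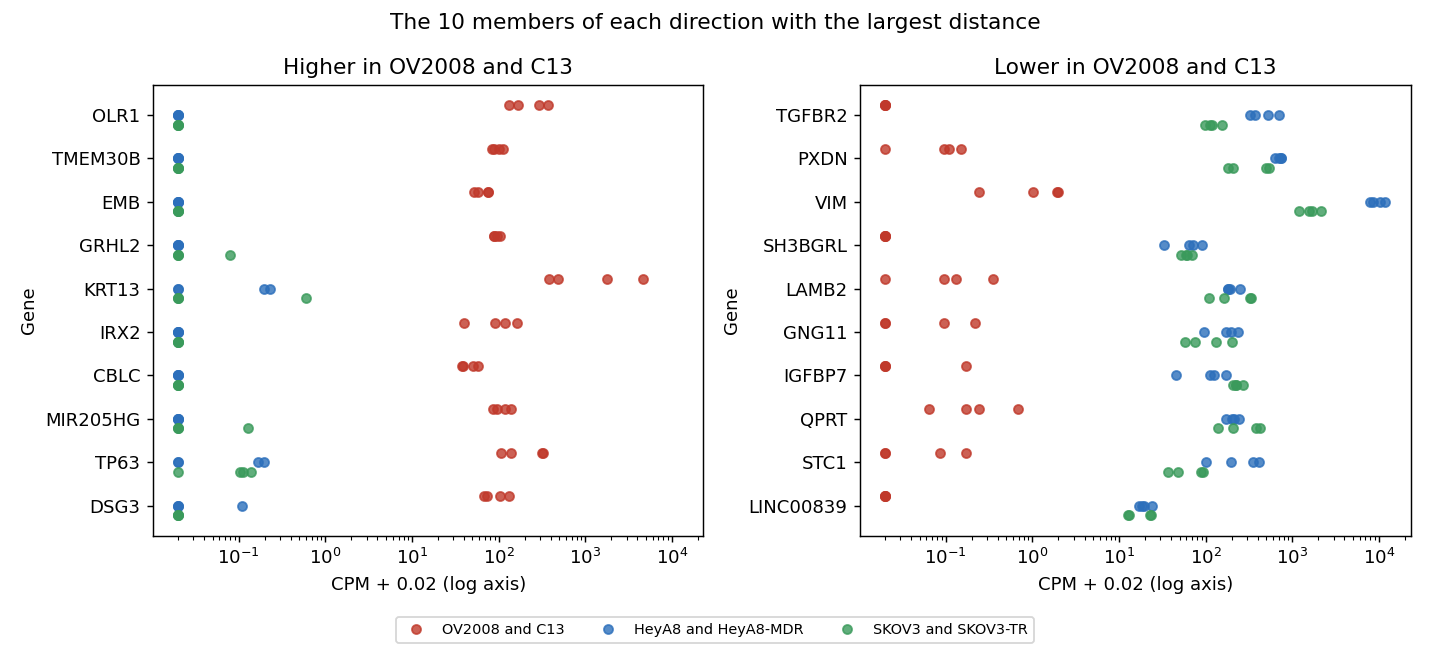
Level of the 10 high (left) and 10 low (right) members with the largest distance, as CPM + 0.02 on a log axis, 1 point per library and 4 per family. In both panels the points of OV2008 and C13 (red) stand clear of the other 8 libraries, which for OLR1, TMEM30B, EMB, IRX2 and CBLC are all at 0.

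The 10 low members with the largest distance were TGFBR2, PXDN, VIM, SH3BGRL, LAMB2, GNG11, IGFBP7, QPRT, STC1 and LINC00839. TGFBR2, the type II receptor that binds TGF-β ligands, had no count in any of the 4 libraries. It reached 712, 525, 322 and 372 CPM in the HeyA8 family and 156, 119.8, 113 and 98.9 in the SKOV3 family. The lowest of these 8 was at least 588-fold above 3 counts. SH3BGRL, a small thioredoxin-like protein, was also without a count in the 4 libraries and at 33 to 89.8 CPM in the other 8.

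PXDN, a peroxidase that cross-links collagen IV, was at 0, 0.0879, 0.132 and 0.0753 CPM against 180.2 to 749 in the others. QPRT, an enzyme of NAD synthesis, was at most 0.661 CPM against at least 139.6, and the secreted hormone STC1 was at most 0.151 against at least 36.5. IGFBP7, a secreted binding protein of insulin-like growth factors, was at most 0.151 CPM against at least 45.3. GNG11, a G protein subunit, was at most 0.198 against at least 57.1. LINC00839, a long noncoding RNA, had no count in the 4 libraries and 12.8 to 24 CPM in the other 8.

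Other genes of the TGF-β route were looked at after TGFBR2 had been seen. The type I receptor TGFBR1 was at 50.6 to 59.2 CPM in the OV2008 family, inside the range of 21.9 to 104 of the other 8, and the co-receptor TGFBR3 was at 15.4 to 28.8, inside 5.97 to 37.5. SMAD4, the shared signal transducer, was low, with 16.7 to 22.9 CPM against 35.9 to 118. The ligand TGFB1 was also low, with 44 to 61.7 against 73.8 to 151.

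The family fit of edgeR, averaged over both other families, placed 4074 genes (22.9% of those tested) higher and 3816 (21.5%) lower at an adjusted p under 0.05. With the adjusted p under 0.05 against each family separately and in the same direction, 1782 genes (10%) were higher and 1853 (10.4%) were lower. Without the HeyA8 QC library these counts were 3784 and 3398, and 1560 and 1557. These calls compare the same libraries as the rule and are not independent of it. A call on the average does not require a difference from both families. The calls are used below to count genes of a list in each direction and for the genes that the study followed. Over all tested genes, 11.2% were high and 8.74% were low, and the median log2 difference was -0.02. The lists were written from general knowledge of each process.

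Squamous and basal epithelial genes stood on the high side throughout. Of 30 listed genes, 28 were tested, 25 were high and 0 were low. All 28 tested genes were called higher, and the median log2 difference was 7.61. KRT6B and CERS3 did not pass the filter. CLCA2, IVL and BNC1 were called higher without being members, since their ranges overlapped.

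TP63, the gene of p63, was at 314, 328, 107 and 138 CPM, and at most 0.177 in the other 8 libraries. KRT5, the basal type II keratin, was at 11179, 8893, 3038 and 2547 CPM. It had no count in the HeyA8 family or in SKOV3, but SKOV3-TR held 49.7 CPM in vehicle and 25.7 with QC. KRT14, its type I partner, was far lower, at 93.9, 29.8, 23.8 and 7.94 CPM, and at most 0.32 elsewhere. The 2 OV2008 libraries held more KRT5 than the 2 C13 libraries, and all 4 lay above SKOV3-TR.

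KRT13, a keratin of stratified epithelium of mucosa, was at 4679, 1803, 487 and 384 CPM against at most 0.586. KRT17, a keratin of basal and injured epithelium, was at 1854, 1459, 572 and 435 against at most 2.49, and KRT6A at 2477, 1116, 119 and 74.7 against at most 1.78. For these 3 keratins every OV2008 library was above every C13 library. Close copies share stretches of sequence, and how shared reads were counted could affect the levels of KRT14, KRT16 and KRT17 and of KRT6A and KRT6B.

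DSG3, a cadherin of squamous desmosomes, was at 132, 68.7, 74 and 103 CPM and at most 0.0884 elsewhere. TRIM29, a ring-finger protein of basal cells, was at 589, 333, 294 and 261 against at most 1.18. SERPINB5, known as maspin, was at 125, 117, 157 and 158 against at most 2.34. S100A2, a calcium-binding protein of basal cells, was at 868 to 1391 CPM against 13.4 to 253, and SFN, the 14-3-3 protein of epithelia, was at 451 to 1383 against 15.8 to 159. SFN and SERPINB5 were higher in both C13 libraries than in both OV2008 libraries, opposite to the keratins.

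**Figure D2:**
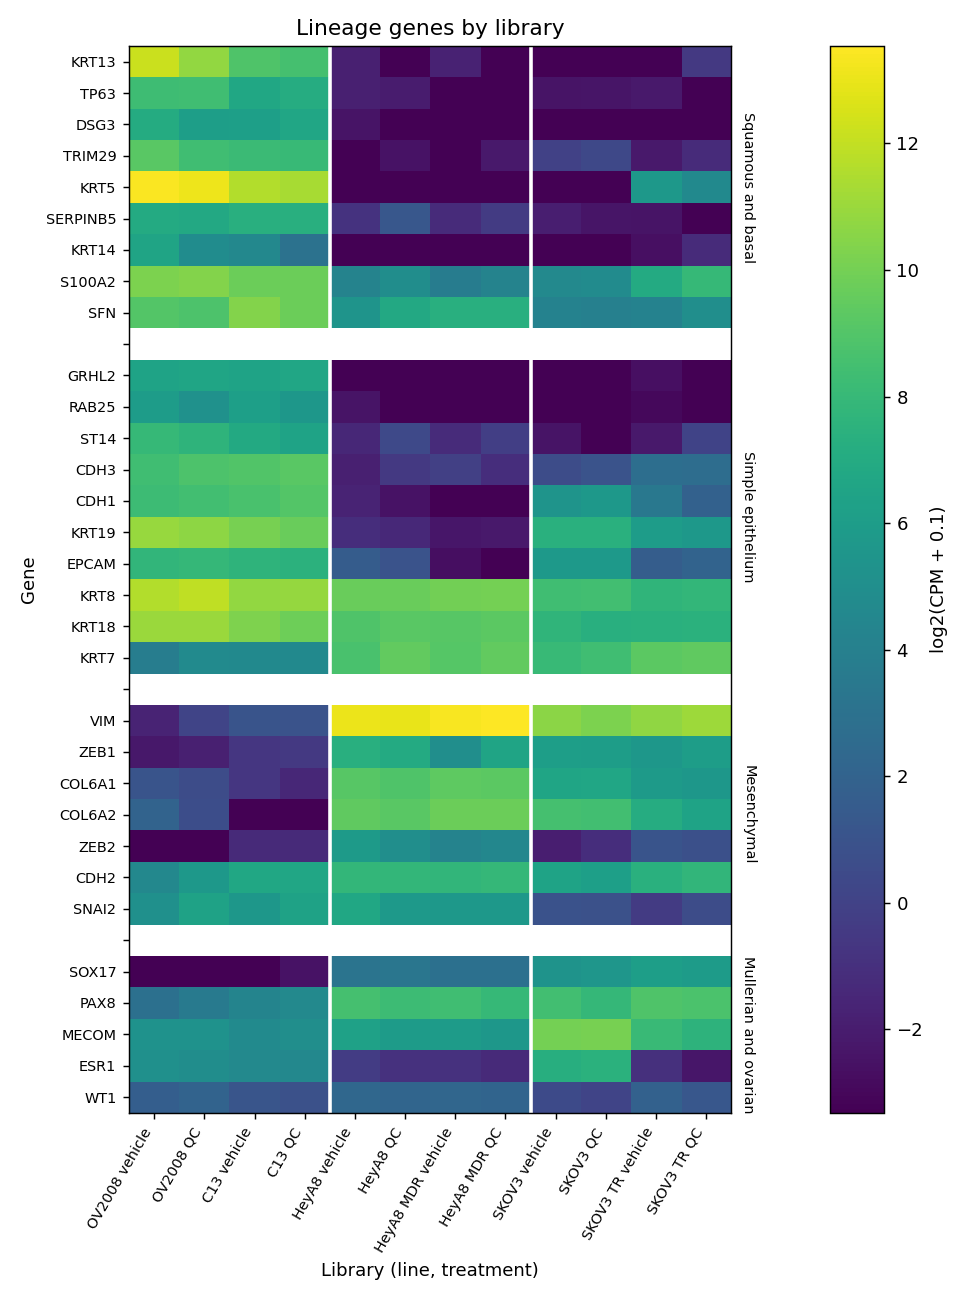
Level of lineage genes in the 12 libraries as log2(CPM + 0.1), grouped by list, with white lines between the families. OV2008 and C13 hold KRT5 up to 11179 CPM and VIM at no more than 1.95 CPM, and KRT7, PAX8 and SOX17 are lowest in these 4 libraries.

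Genes of simple epithelium and of cell junctions were mostly high as well. All 43 listed genes were tested. Of these, 27 were high, 1 was low, 36 were called higher and 1 lower, with a median log2 difference of 4.45. GRHL2, a grainyhead factor, was at 89.2, 96.1, 87.7 and 103 CPM, with no count in 7 of the other 8 libraries and 0.0594 CPM in SKOV3-TR vehicle. Its relatives GRHL1, at 11.2 to 24.9 against at most 2.4 CPM, and GRHL3, at 7.21 to 23.7 and 8.69-fold above the nearest other library, were also high.

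CDH1, the gene of E-cadherin, was at 307, 345, 407 and 522 CPM. The HeyA8 family held at most 0.221 CPM, SKOV3 held 42 and 51, and SKOV3-TR held 10.7 and 3.68. CDH3, the gene of P-cadherin, was at 329, 447, 493 and 594 against at most 6.62. EPCAM, an epithelial adhesion molecule, was at 218, 245, 203 and 182, while SKOV3 held 52.5 and 52.9 and the other 6 libraries at most 4.1. All 4 libraries thus lay above SKOV3 for these 3 cadherin and adhesion genes, as well as above the HeyA8 lines.

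RAB25, a vesicle GTPase of epithelia, was at 65.2, 36.7, 73 and 47.8 CPM, and at most 0.0884 elsewhere. ST14, the membrane protease matriptase, was at 257, 202, 122 and 87.9 against at most 1.21. The keratins of simple epithelium were split. KRT8 was high at 1815 to 3949 against at most 1055 CPM, KRT18 at 920.3 to 2098 against at most 621, and KRT19 at 834 to 2003 against at most 169. KRT7 was the 1 low member of the list, at 13.8, 26.8, 25.1 and 26.1 CPM against 259 to 732. CLDN4, a tight junction claudin, overlapped because SKOV3 held 50.1 and 52.7 CPM beside 37.2, 68.5, 174 and 203.

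Mesenchymal genes stood on the low side. Of 38 listed genes, 33 were tested, 0 were high and 12 were low, 21 were called lower and 3 higher, and the median log2 difference was -2.91. VIM, the gene of vimentin, was at 0.223, 1.01, 1.95 and 1.92 CPM, against 7935 to 11921 in the HeyA8 family and 1189 to 2174 in the SKOV3 family. The nearest libraries of the 2 sides differed 609.6-fold.

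COL6A1 and COL6A2, chains of collagen VI, were at 0.263 to 1.95 and 0 to 3.96 CPM, against 47.5 to 657 and 86 to 873. SPARC, a matrix glycoprotein, was at most 0.376 CPM against 1.82 to 1081, and FN1, the gene of fibronectin, was at 4.19, 7.17, 32.1 and 36.1 against 59.6 to 11809. ZEB2 overlapped, with at most 0.301 CPM in the OV2008 family but 0.168 in SKOV3 vehicle. CDH2, the gene of N-cadherin, was present at 23.3, 50, 106 and 102 CPM and overlapped with SKOV3. SNAI2, an EMT factor also found in basal keratinocytes, was called higher and was at 34.6 to 83.8 CPM, above the SKOV3 family at 0.653 to 1.76 but within reach of the HeyA8 family at 49.7 to 108. CDH11 and MMP14 were the other genes of the list called higher.

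The Müllerian and ovarian list gave 16 tested genes of 22, with 0 high and 3 low members, 2 called higher and 7 lower, and a median log2 difference of 0.05. SOX17 had no count in 3 of the 4 libraries and 0.0753 CPM in C13 QC, against 7.37 to 71.3 CPM in the other 8. PAX8 was at 7.54, 11.7, 19.5 and 24.7 against 235 to 482 CPM. MECOM, a zinc finger oncogene of this lineage, was at 26.2 to 39.4 against 48.3 to 1090. Other genes of the list did not separate: WT1 was at 1.73 to 4 CPM in the OV2008 family and at 1 to 4.77 in the others. ESR1, the oestrogen receptor, was at 23.7 to 34.9 CPM, between SKOV3 at 151 and 174 and the remaining 6 libraries at no more than 0.707.

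**Figure D3:**
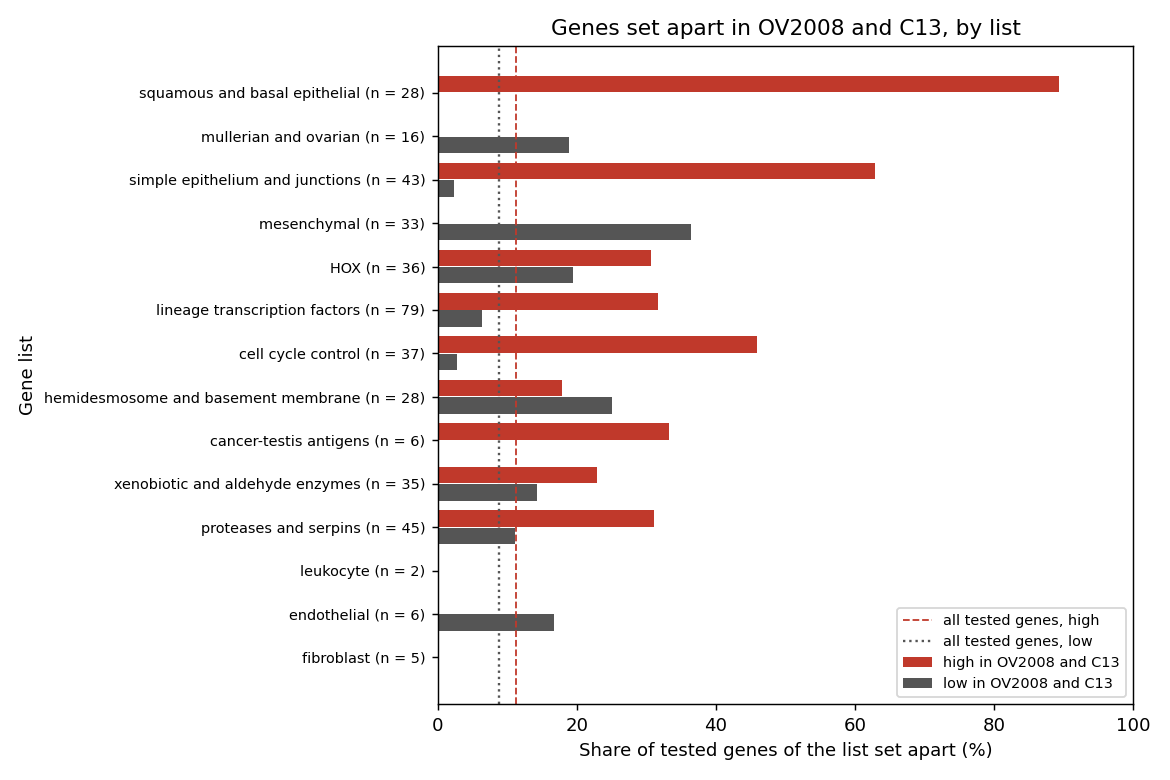
Share of the tested genes of each list that were high (red) or low (grey) in OV2008 and C13, in percent, with the shares over all tested genes as lines (dashed red, dotted grey). The squamous list reaches 89.3% high and the simple epithelium list 62.8%, beside 11.2% of all genes, and the mesenchymal list 36.4% low beside 8.74%.

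HOX genes were divided by cluster. Of 39 listed genes 36 were tested, of which 11 were high and 7 low, 14 were called higher and 11 lower, and the median log2 difference was 0.52. The HOXA cluster had 5 high of 11 tested genes and the HOXC cluster 4 of 8, with 0 low in either. The HOXB cluster had 5 low of 9 and 0 high, and the HOXD cluster 2 of each of 8.

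HOXC10 to HOXC13 were all high. HOXC12 was at 18.8, 17.7, 13.3 and 16.4 CPM and had no count in the other 8 libraries, which is at least 74.8-fold above 3 counts. HOXC13 was at 31.3, 40.8, 33.7 and 52.9 against at most 0.327, and HOXC10 at 39.5, 56.8, 43.5 and 52.3 against at most 3.89. HOXD10 was at 12.1, 14.2, 11.9 and 10.5 CPM and at most 1 elsewhere. In the HOXC cluster the genes with numbers 4 to 9 overlapped with the other libraries.

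The low HOXB members differed by less. HOXB8 was at 0.447 to 1.02 CPM against 2.09 to 94.2, HOXB5 at 3.25 to 5.64 against 11.1 to 70.9, HOXB9 at 10.2 to 14.2 against 23.3 to 85.5, and HOXB4 at 3.2 to 7.74 against 10.3 to 39.1. Their distances were 0.98, 0.97, 0.72 and 0.41 on the log2 scale, beside 7.30 for HOXC12. Neighbouring HOX genes overlap on antisense transcripts, and the strand setting of the counting is not given in the sources used here.

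**Figure D4:**
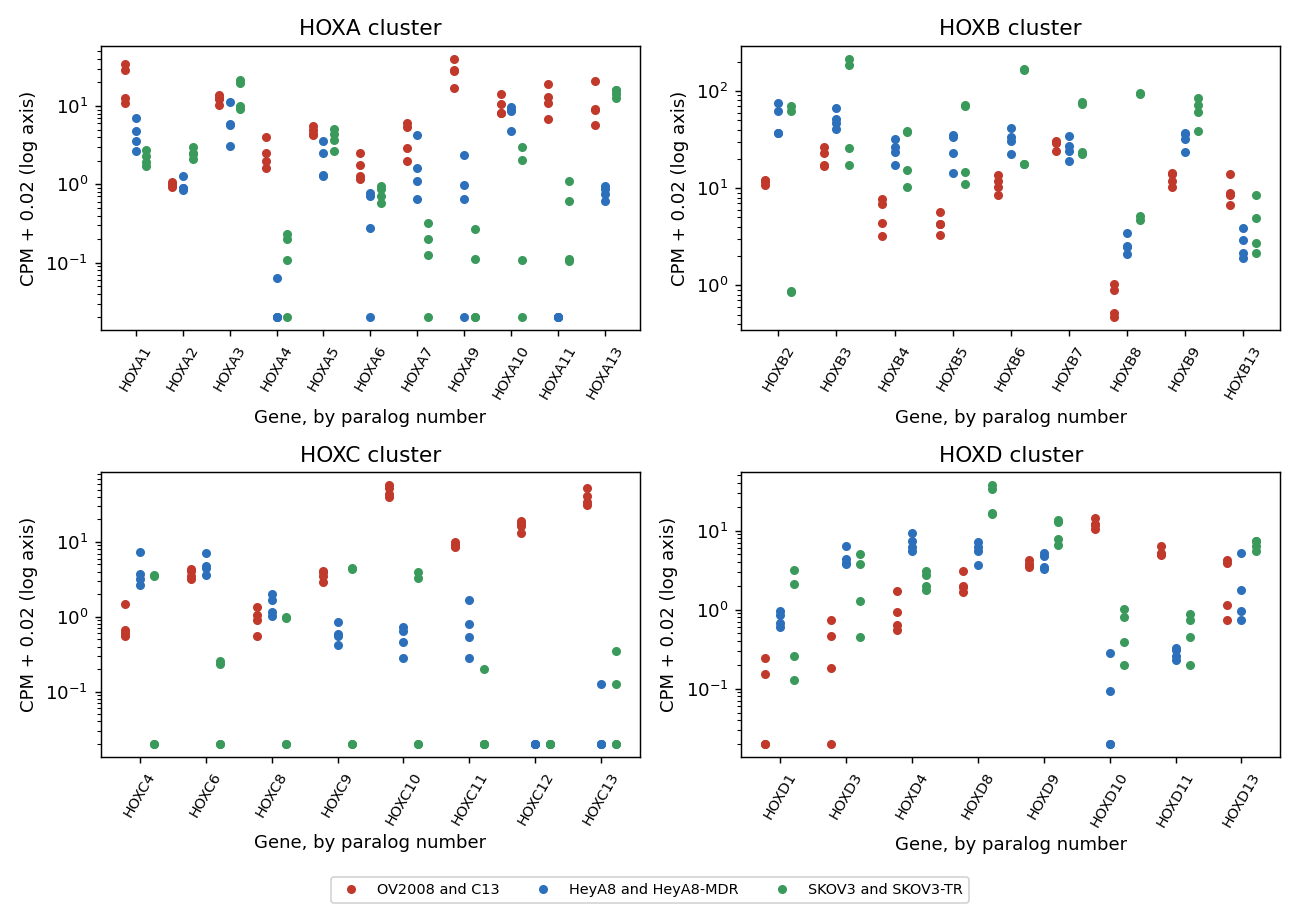
Level of the tested HOX genes by cluster and paralog number, as CPM + 0.02 on a log axis, 1 point per library. OV2008 and C13 (red) lie above the other families from HOXC10 to HOXC13 and below them at HOXB4, HOXB5, HOXB8 and HOXB9.

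Among 94 factors listed for lineages, 79 were tested, 25 were high and 5 low, 43 were called higher and 13 lower, and the median log2 difference was 1.11. IRX2, an Iroquois homeobox factor, was at 40.2, 120.1, 89.8 and 163 CPM and had no count elsewhere, at least 226-fold above 3 counts. Its divergent noncoding neighbour IRX2-DT was at 24.6, 58.4, 39.7 and 83.8 CPM and also 0 elsewhere. For both transcripts the QC library of each line was above its vehicle library. IRX4 was at 32.8 to 51.4 CPM against at most 0.297.

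CDX2, a homeobox factor of intestinal epithelium, was at 6.42, 6.07, 6.02 and 5.31 CPM without a count in the other 8 libraries, at least 29.8-fold above 3 counts. SOX2, a factor of squamous and stem cells, was at 20.7, 15.4, 5.85 and 4.74 CPM and at most 0.0733 elsewhere. The low members were SOX17, PAX8, PAX6, HNF4G and MSX1. PAX6, an eye and neural factor, was at most 0.112 against 0.587 to 18.3 CPM. HNF4G, a nuclear receptor of gut and kidney, had no count in the 4 libraries but only 0.105 CPM in HeyA8-MDR vehicle, which is at the level of a few counts.

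Cell cycle control genes, among them inhibitors, cyclins and E2F targets, gave 17 high and 1 low member of 37 tested, with 22 called higher and 6 lower and a median log2 difference of 1.20. CDKN2A, which encodes the inhibitors p16 and p14ARF, was at 129, 116, 164 and 127 CPM, with no count in 7 of the other 8 libraries and 0.32 CPM in SKOV3-TR QC. CDKN2B, the neighbouring gene for p15, was at 7.65, 15.2, 14.8 and 33.3 CPM without a count elsewhere. The antisense transcript CDKN2B-AS1 of the same locus was at 5.8 to 7.94 against at most 0.0366 CPM. MTAP, the next gene of the locus and an enzyme of methionine salvage, divided the other families. It was at 145, 170.3, 94.1 and 86.8 CPM, at 39.9 to 53.8 in the SKOV3 family and at no more than 0.118 in the HeyA8 family.

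TP73, a transcription factor gene that E2F1 is known to induce, was at 21.2, 17.5, 10 and 8.54 CPM against at most 0.594. MCM2, a subunit of the replicative helicase, was at 318, 261, 272 and 215 against 41 to 89, and MCM7 at 319 to 499.7 against 28.7 to 208. E2F1 was at 79.4 to 105 CPM against 9.05 to 50.5, SKP2, a ubiquitin ligase subunit for p27, at 71.4 to 243 against 5.33 to 37.2, and CCNE1, the gene of cyclin E, at 19.8 to 30.6 against 7.51 to 15.1. RBL1, UHRF1, CCND2, PCNA, CCND3, CCNE2, CDK2 and E2F8 were the other high members of the list beside MTAP. CDKN1C, the inhibitor p57, was low, at most 0.484 against 1.59 to 7.68 CPM. RB1, CDKN1A and CCND1 were not members. The growth rate of the lines is not given in the sources used here, and its part in these values was not tested.

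Basement membrane genes held members of both directions, with laminins, integrins and collagens on either side. All 28 listed genes were tested, with 5 high and 7 low members, 6 called higher and 10 lower and a median log2 difference of -0.30. The hemidesmosome collagen COL17A1 was at 1115, 1601, 669 and 982 CPM against at most 39.1. The hemidesmosome integrin ITGB4 was at 736 to 1206 against 350.1 to 472 in the SKOV3 family and at most 5.61 in the HeyA8 family. LAMA3 was also high. LAMB2, the β2 laminin chain, was at 0.112, 0, 0.331 and 0.0753 CPM against 109 to 335.

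The chains of collagen IV went in opposite directions. COL4A1 was at 55.5 to 83.4 against 177 to 1287 CPM and COL4A2 at 53.6 to 93.2 against 425 to 1091. COL4A5 was at 65.2 to 176 CPM against 1.5 to 50.6 and COL4A6 at 9.33 to 64.2 against 0 to 6.74, and in both lines the QC library held more of these 2 chains than the vehicle library. NID2, a nidogen, was at 0.352 to 1.19 against 1.52 to 51.6 CPM. ITGA3, LAMC1 and CD151 were the other low members.

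Proteases and their inhibitors gave 14 high and 5 low members of 45 tested from 52 listed, with 20 called higher and 13 lower and a median log2 difference of 0.83. KLK5, a kallikrein that cleaves the cornified layer, was at 202, 114, 15.7 and 15.9 CPM and at most 0.0594 elsewhere. Of the 8 kallikreins tested 5 were high, 7 were called higher and 0 lower. KLK10 was at 534, 102, 61.7 and 37.4 against at most 13.1, and SKOV3-TR was the source of that value. TMPRSS4, a membrane serine protease, was at 127, 87.3, 39.2 and 39.6 against at most 0.182 CPM. The low members were led by SERPINB1, an inhibitor of neutrophil proteases, at 0, 0, 0.331 and 0.0753 against 33.2 to 101 CPM. TFPI, an inhibitor of coagulation, was at 0.447, 0.44, 5.52 and 4.74 against 21.4 to 125, SERPINA1 at most 0.264 against 0.594 to 7.34, and TIMP2 at 75.4 to 101 against 168 to 761.

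Of 42 enzymes of xenobiotic and aldehyde metabolism 35 were tested, with 8 high and 5 low members, 15 called higher and 7 lower and a median log2 difference of 0.99. DHRS9, a retinol dehydrogenase, was at 114, 20.7, 51.7 and 26.3 CPM against at most 0.297, with less in the QC library of each line. SULT1A1, a sulfotransferase, was at 22.6, 34.8, 31.6 and 38.8 against at most 1.1, and CYP4F11, a fatty acid hydroxylase, at 20.5 to 50.1 against at most 3. ALDH3A1, an aldehyde dehydrogenase of cornea and other epithelia, was at 189.9, 103, 499 and 426 CPM against at most 23.3.

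MGST1, a membrane glutathione transferase, was at most 0.263 against 1.87 to 118 CPM, and AKR1C3, an aldo-keto reductase of steroids, was at 0.614, 1.41, 5.22 and 4.67 against 18.3 to 321. GSTA4 was at 0.0879 to 0.677 against 1.1 to 25.1, and GSTM2 at most 0.112 against 0.177 to 6.83. For GSTM2 the separation from the HeyA8 family was one of few counts, at most 2 against 4 to 7 per library. The glutathione transferases of the GSTM group, and AKR1C3 with its relatives, share reads with close copies.

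Few genes of the lists for other tissues passed the filter. Of 36 cancer-testis antigens 6 were tested and 2 were high, the RNA helicase DDX43 at 4.62 to 11.6 against at most 0.784 CPM and LAGE3 at 17.9 to 32.2 against at most 17.1. Of 14 leukocyte genes 2 were tested and 0 were members. The tested leukocyte genes summed to 0.558 to 2.67 CPM in the OV2008 family, 2.25 to 3.2 in the HeyA8 family and 0 to 0.32 in the SKOV3 family, and PTPRC, CD3E and CD14 did not pass the filter. Endothelial genes, of which 6 of 9 were tested and KDR was low, summed to 8.43 to 16.2 CPM in the OV2008 family, 228 to 385 in the HeyA8 family and 0.182 to 9 in the SKOV3 family. Of the tested genes 3 endothelial and 2 fibroblast genes were called lower. KDR was at most 0.0879 against at least 0.091 CPM, a separation of single counts. Fibroblast genes, with 5 of 12 tested and 0 members, summed to 14.1 to 33.9 CPM, beside 83.7 to 179 in the HeyA8 family and 12.5 to 45.4 in the SKOV3 family, and DCN, LUM and POSTN did not pass the filter.

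Of the genes that the study followed after QC, 6 were looked at among tested genes, and none of these 6 was a member. GNL3, the gene of nucleostemin, was at 144, 120.1, 192 and 119 CPM against 74.2 to 135, and POLR1A, a subunit of RNA polymerase I, at 124 to 239 against 35.4 to 191. ASNS was at 1.77 to 4.02 against 2.81 to 19, DNMT3B at 12.3 to 24.4 against 6.75 to 210.1, PHGDH at 37.6 to 121 against 95.9 to 316 and G3BP1 at 236 to 340.1 against 222 to 535. In the family fit (edgeR adjusted p in parentheses) the mean log2 difference was 0.55 for GNL3 (0.033) and 0.95 for POLR1A (0.0406), and -1.46 for PHGDH (6.37e-04), -1.56 for ASNS (0.0265) and -0.87 for DNMT3B (0.0451). These 5 genes thus differed from the average of the other families although their ranges overlapped. With library size only, DNMT3B was not called (0.0542). Its average joins opposite directions, 1.05 against the HeyA8 family (0.0368) and -2.79 against the SKOV3 family (1.40e-04). Against each family singly, GNL3 (0.055 for HeyA8, 0.0727 for SKOV3) and POLR1A (0.0849 and 0.0752) were not called, while PHGDH and ASNS were called against both. G3BP1 had a difference of -0.35 (0.238). CST6, the gene of cystatin M, did not pass the filter. It held 6, 41, 62 and 266 counts in the OV2008 family and 0 to 4 counts in each of the other 8 libraries. At 0.335 to 10 CPM against at most 0.213, CST6 met the rule for high genes outside the filter.

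The share of members differed between chromosomes. Of the high members 1855 and of the low members 1415 had a RefSeq position on GRCh38.p14, among 15870 tested genes with one, and 11.7% of these genes were high and 8.92% low. The share of high genes was 20.7% on chromosome 22 (79 of 381), 15.7% on chromosome 17 and 15.3% on chromosome 15, and 5.36% on chromosome 13. The share of low genes was 16.6% on chromosome 8 (90 of 543) and 14.7% on chromosome 18, and 4.4% on chromosome 16. Across 15433 windows of 20 neighbouring tested genes, a window held a median of 2 high and 1 low members, 75 windows held at least 10 high members and 14 held at least 10 low members.

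The window with the most high members was on chromosome 5, chr5:1317752-8463096, with 16 of 20 genes and 0 low. It runs from CLPTM1L to MIR4458HG and holds IRX4, IRX2 and IRX2-DT beside broadly expressed genes. NSUN2, an RNA methyltransferase, was at 338, 345, 645 and 532 CPM against 44.2 to 159, MTRR, an enzyme of methionine synthesis, at 155, 157, 156 and 164 against 46.4 to 69, and FASTKD3 at 39.7 to 56.8 against 6.32 to 13.9. The mitochondrial genes MRPL36, at 72.6 to 179 against 15.8 to 37, and NDUFS6, at 141 to 293 against 25.7 to 78, were high as well. TRIP13, a checkpoint ATPase on the same chromosome, was at 176 to 391 against 8.25 to 62.7. The median log2 difference over the 20 genes was 1.83 against the HeyA8 family and 1.70 against the SKOV3 family, and 19 of the 20 genes had a positive difference.

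**Figure D5:**
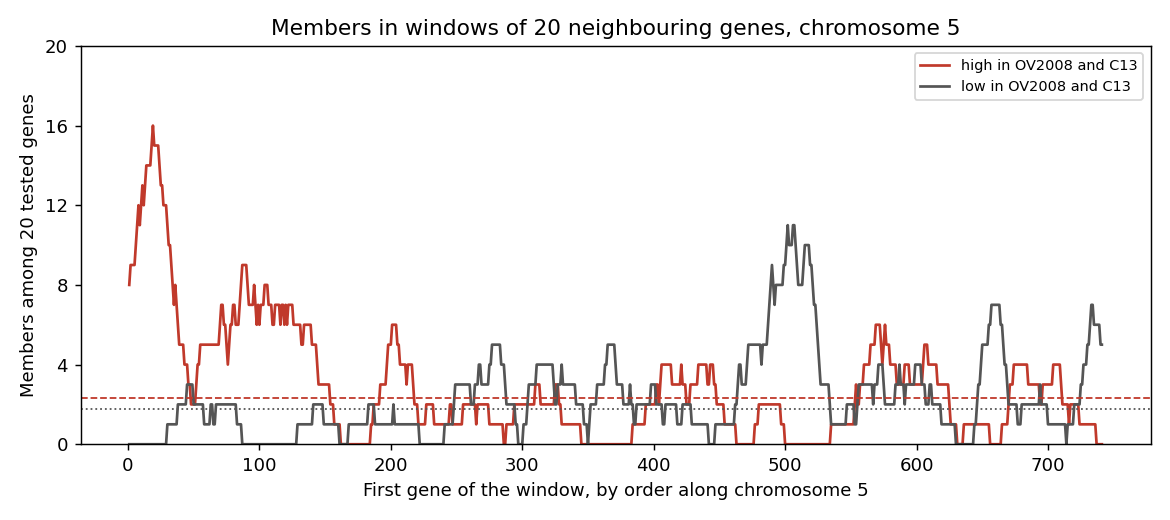
Number of high (red) and low (grey) members among 20 neighbouring tested genes, by order along chromosome 5, with the mean over all chromosomes as lines (dashed red, dotted grey). The high members reach 16 of 20 near the start of the chromosome, and the low members reach 11 of 20 in the protocadherin clusters.

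The second window, with 12 high members, lies at chr17:40287879-41734646 and holds the type I keratin cluster with CDC6 and TNS4 at its start. All 9 type I keratins tested were high, among them KRT18, which lies on chromosome 12 and not in this window. The third, with 11 high members, lies at chr2:108894471-112255042, from EDAR to ZC3H8.

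The window with the most low members, 11 of 20, covers the protocadherin α and β clusters at chr5:140794852-141212571. Protocadherins are adhesion proteins known from neurons, and the α and γ genes share their last exons, so reads there cannot be assigned to a single gene. Of 9 PCDHA genes tested 7 were low, of 16 PCDHB genes 8 and of 21 PCDHG genes 3, and 0 were high. The PCDHA genes summed to 0.132 to 1.62 CPM in the OV2008 family, 7.76 to 32 in the HeyA8 family and 25.7 to 48.7 in the SKOV3 family.

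The next window of low members, 10 of 20, is a zinc finger cluster at chr19:52527668-53254873. ZNF83 was at 0, 0.0879, 0.132 and 0.188 CPM against 29.2 to 242, and ZNF677 had no count in the 4 libraries and 1.07 to 51.8 CPM in the others. These 2 genes were chosen after their values had been seen. Over chromosome 19, 31 of 268 ZNF genes (11.6%) were low and 9 (3.36%) high, and on the other chromosomes 19 of 266 (7.14%) were low and 17 (6.39%) high. The window ranked next, with 9 low members at chr10:30692274-37976647, holds ZEB1 with its antisense transcript ZEB1-AS1, NRP1 and ITGB1.

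Promoters of 300 bases, 250 before and 50 after the start, were found in the RefSeq table for 1438 high members, 1087 low members and 12295 tested genes. The E-box CAGGTG, the sequence that ZEB1 and SNAI2 are known to bind, was present on either strand in 23.9% of the high, 14% of the low and 18.9% of all tested promoters. With the tested promoters divided into 3 groups of about the same size by GC content, the shares were 23.3%, 14.3% and 17.2% in the lowest and 23.6%, 12% and 19% in the highest. Among the promoters printed above, TMEM30B held 4 matches in the whole window, of which 3 lie in the printed bases, and KRT5, SERPINB5 and ZEB1 held 1 each. A match describes letters only.

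The AP-1 motif TGANTCA was in 4.59% of high, 5.24% of low and 4.93% of tested promoters, and in SERPINB5 among those printed. The grainyhead motif AACNGGTT was in 1.25%, 1.2% and 1.37%. Over all 27305 promoters of the table the shares of the 3 motifs were 20.6% for the E-box, 7.76% for AP-1 and 1.73% for grainyhead. Each motif was counted on its own, and overlaps between motifs were not removed.

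Whether QC changed the family difference was asked with the interaction of family and QC. The interaction of family and QC called 0 of 17766 genes with edgeR and 0 with DESeq2, and at an unadjusted p under 0.05 it was 389 genes (2.19%) and 472 genes. Of the 389 genes 76 were members, a share near the 19.9% of all tested genes that were members. This fit held no term for the line, so the difference between the 2 lines of a family counted as spread. It left 6 residual degrees of freedom, so 0 calls do not show that QC left the family difference unchanged. The median absolute QC change of the high members was 0.28 in OV2008 and 0.30 in C13 on the log2 scale, beside 0.37 and 0.35 for all tested genes, and for the low members it was 0.36 and 0.33. Among the members, 29 high and 33 low genes rose by at least 1 on the log2 scale with QC in both lines, and 10 and 11 fell. As shares these were 1.46% and 2.12% rising and 0.504% and 0.708% falling, beside 3.37% and 0.996% of all tested genes. The rule asks every library of the family to lie on the same side, which favours genes that move little within it. The QC changes of the members are therefore not independent of the rule.

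The median absolute difference between libraries of the family was 0.35 to 0.54 on the log2 scale over its 6 pairs, beside 0.80 to 1.02 against the HeyA8 family and 1 to 1.12 against the SKOV3 family. Of the 1984 high members, 41 (2.07%) were lower in both C13 libraries than in both OV2008 libraries by at least 1 on the log2 scale and 37 (1.86%) higher. Of the 1553 low members, 60 (3.86%) were lower and 63 (4.06%) higher by the same measure. For all tested genes these shares were 3.01% and 3.56%, between those of the high and the low members. The shares of the members are not independent of the rule, which favours genes that move little within the family.

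The interaction of family and resistance asked whether the difference of the OV2008 family from the mean of the others was larger between resistant lines than between sensitive lines. It called 1369 genes (7.71%) upward and 1176 (6.62%) downward at an adjusted p under 0.05, in all 14.3% of the genes tested. With library size in place of TMM the numbers were 1866 and 850, and 68.7% rather than 53.8% of the calls went upward. Of the high members 220 (11.1%) and of the low members 207 (13.3%) were called, shares near that background. Without the HeyA8 QC library the numbers were 1480 and 1340. They fell to 693 and 646 without OV2008 vehicle, 775 and 689 without OV2008 QC, 794 and 641 without C13 vehicle, and 584 and 619 without C13 QC.

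EPCAM had the larger difference in resistant lines, by 4.76 ± 0.429 (SE) on the log2 scale (edgeR adjusted p = 6.92e-05), where SKOV3-TR had 3.09 CPM in vehicle and SKOV3 52.5. CDH1 moved likewise by 4.26 ± 1.16 (edgeR adjusted p = 0.0329) and the overlapping CLDN4 by 3.12 ± 0.316 (edgeR adjusted p = 1.23e-04). ALDH3A1 moved by 6.32 ± 1.22 (edgeR adjusted p = 0.00736), with C13 above OV2008 and SKOV3-TR below SKOV3. S100A2, at 24 and 28.4 CPM in SKOV3 and 125 and 253 in SKOV3-TR, had the smaller difference in resistant lines, by -1.63 ± 0.302 (edgeR adjusted p = 0.00486).

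Among low members, AKR1C3 moved by 4.00 ± 0.401 (edgeR adjusted p = 1.14e-04) and TFPI by 3.99 ± 0.445 (edgeR adjusted p = 2.44e-04). Both were higher in the C13 than in the OV2008 libraries, and their deficit against the other lines was smaller in resistant lines. The other lines moved too: AKR1C3 was at 59.5 and 94.8 CPM in SKOV3-TR beside 321 and 317 in SKOV3. Both genes were lower in HeyA8-MDR than in HeyA8. COL6A2 moved the other way by -8.31 ± 0.968 (edgeR adjusted p = 4.45e-04), since it had 3.96 and 1.49 CPM in OV2008 and no count in C13. HOXC10 moved by -5.16 ± 0.586 (edgeR adjusted p = 3.74e-04), where SKOV3 had no count and SKOV3-TR 3.89 and 3.3 CPM.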

How the data were processed

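RNA-seq of 12 libraries was analysed. The deposited file holds raw counts per gene for 60669 gene identifiers, of which 58620 were paired with a symbol. The study's methods describe TopHat alignment to hg19 and HTSeq counting, whereas the submitters' processing notes name STAR 2.7.3a, HTSeq 0.6.1p1 and GRCh38.p13, and this difference was not resolved here. Positions and sequences are from RefSeq (GRCh38.p14).

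The authors' counts were used as deposited. Genes were filtered with filterByExpr by family (minimum count 10, minimum total 15) and scaled by TMM in edgeR 4.0.16 under R 4.3.3. Members were found on CPM, and log2 values used a prior count of 2. The edgeR quasi-likelihood test gave the family contrast and its interactions with QC and with resistance, with Benjamini-Hochberg adjusted p under 0.05. The fit was tested on simulated data. Alternatives included DESeq2 1.42.0, other scalings and filters, and leaving out libraries and lines. A gene without counts on 1 side is given as at least a fold over a floor of 3 counts per library, and folds and floors cover counting error only.

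Members and lists were chosen with earlier results of these data known. Genes were named as the 10 high and 10 low members with the largest distance, the 4 largest of each direction in each list, markers and study genes fixed by name, and the 2 genes on either side of the rule's edge in each direction. The kallikrein, keratin, protocadherin, ZNF and HOX cluster counts, and CDKN2B-AS1, MTAP, MIR200CHG, KRT6A, KRT8, KRT17, KRT18, KRT19, S100A2, SFN, GRHL1, GRHL3, SOX2, IRX2-DT, CLDN4, ESR1, CDH2, SNAI2, ZEB2, SPARC, FN1, KLK10, E2F1, MCM7, SKP2, CCNE1, the TGF-β genes other than TGFBR2 and the single genes of the chromosome windows, were chosen after their values were seen. Some genes and 1 motif of the lists are not reported here.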

Additional observations from a re-analysis of the deposited data

Results flagged for a closer look

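In a group of 4 libraries, 1 library stood apart from the other 3 for 16 named genes, and chance gives this in about 1 in 20 groups. With 131 named genes and 3 families, a number of this size can arise by chance. In the OV2008 family these were KRT7 at 13.8 CPM in OV2008 vehicle, KLK10 at 534 in OV2008 vehicle and C2orf49 at 42.1 in C13 QC. In the HeyA8 family, HeyA8 QC stood apart for SERPINB5 at 2.34 CPM, KRT17 at 2.49 and COL4A6 at 6.74, HeyA8 vehicle for HNF4G at 2.56 and SNAI2 at 108, and HeyA8-MDR vehicle for LAMB2 at 252, DDX43 at 0.784 and CCNE1 at 15.1. In the SKOV3 family, SKOV3-TR QC stood apart for KRT13 at 0.586 CPM, ST14 at 0.959 and SFN at 32, and SKOV3-TR vehicle for ZEB1 at 49.2 and DHRS9 at 0.297.

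The family difference was not the same in resistant and sensitive lines for 29 of 131 named genes, by the edgeR interaction at an adjusted p under 0.05. Over all tested genes the share was 14.3%. Many named genes were chosen for their distance or after their values were seen, so the count describes these genes only. The OV2008 family minus the others was more positive in resistant lines, on the log2 scale, for ALDH3A1 by 6.32, SERPINB1 by 5.89, MGST1 by 4.92, EPCAM by 4.76, ESR1 by 4.46, CDH1 by 4.26, BST2 by 4.13, AKR1C3 by 4.00, TFPI by 3.99, FN1 by 3.28, CLDN4 by 3.12, ZEB1 by 2.72, NID2 by 2.28, HOXB8 by 2.09, HOXB5 by 1.61, NSUN2 by 1.25, TIMP2 by 1.22 and MRPL36 by 0.99. It went the other way for COL6A2 (-8.31), HOXC10 (-5.16), COL4A5 (-2.86), ASNS (-1.84), COL6A1 (-1.74), S100A2 (-1.63), WT1 (-1.60), DMTF1 (-1.59), MCM7 (-1.36), KRT18 (-0.98) and KRT8 (-0.82). For SERPINB1, MGST1, AKR1C3, TFPI, FN1, ZEB1, NID2, HOXB8, HOXB5 and TIMP2, which were low in the family, a positive value is a smaller deficit in resistant lines. For the low members COL6A2, COL6A1 and DMTF1, and for ASNS with its negative mean difference, a negative value is a larger deficit there. The values of SERPINB1, MGST1 and ZEB1 rest on few reads, at most 10, 7 and 16 counts in a library of the OV2008 family.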

How the results depend on the processing

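Requiring at least 10 counts in every library left 1146 high and 997 low members, 2602 genes higher and 2530 lower in the family fit, and 1124 and 1194 against both families. With vehicle libraries only the counts, in the same order, were 3183 and 3074, 1473 and 1188, and 407 and 503. With QC libraries only they were 3261 and 2734, 1729 and 1285, and 530 and 582. With the libraries of a line summed they were 3676 and 3380, 2009 and 1563, and 584 and 653. Fewer libraries per side make it easier for a gene not to overlap, and leave fewer degrees of freedom to the fits. A distance of at least 2-fold kept 569 high and 528 low members. DESeq2 called 1790 genes downward in the resistance interaction, and without a filter the QC interaction called 9 genes, for which the cause was not tested. TGFBR1, which is not a member, changed sign to 0.02 with library size only.

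With 1 library or 1 line left out, high members ranged from 2061 to 3155 and low members from 1612 to 2409. The family fit ranged from 2919 to 4852 genes higher and from 2516 to 4229 lower, and the calls against both families from 1184 to 2189 and from 1303 to 2016. The resistance interaction ranged from 584 to 1480 upward and from 619 to 1340 downward, and could not be fitted without a line. The QC interaction ranged from 0 to 0. The extremes were 3155 high members without OV2008, 2409 low members without C13, 2516 genes lower in the family fit without C13, and 1184 higher against both families without HeyA8-MDR. With DESeq2 size factors 1891 high and 1550 low members were kept, and with library size 1811 and 1326, with 0 reversed. The labels give no replicate numbers, so libraries could be matched across families only by condition, and with the 4 conditions as a block the family fit called 4069 genes higher and 3727 lower. One library per line and treatment limits all counts.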
